A study of Mus musculus with 12 samples.

Results

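The bone morphogenetic protein (BMP) genes described here are 10: the ligand genes Bmp2, Bmp4, Bmp5, Bmp6 and Bmp7, and the inhibitor genes Nog, Chrd, Fst, Bambi and Smad7. They were taken by name, together with every probe set on the array that was annotated to 1 of them alone, which gave 16 probe sets out of 34958 with a single gene and 10 genes out of 18193. A probe set is a group of short oligonucleotides that report 1 transcript, and a gene with several is represented by its brightest, with the others given beside it. The messages were profiled in the neural tube, from which brain and spinal cord form, of ICR (CD-1) mouse embryos at gestation day 8.5 (GD8.5), GD9.0 and GD9.5, after micro-dissection. ICR is an outbred stock, the embryos carried no transgene or treatment in the labels, and days were counted from the vaginal plug. The study's stated aim was to find messages whose level stays constant or changes over these stages, which span the period of neural tube closure in the mouse.

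The series held 12 arrays, with 4 labelled biological replicates a stage. The labels do not say whether a replicate was an embryo, a litter or a pool, so the tests measure the spread between these samples, which may be partly technical. GD8.5 replicates 1 and 2 were deposited as linear intensities with medians of 92.2 and 98.3, whereas the other 10 held log2 values with medians of 1.75 to 1.82. Stage comparisons therefore used 10 arrays, 2 of them from GD8.5 and 4 from each later stage, and the number of arrays limits their precision. The 95th percentile of 39 olfactory receptor genes, 1.42, was taken as the background level, and 71.6% of genes had a mean above it. Of the 16 probe sets, 15 were above it, and that of Nog was not. Because these are bulk samples, fewer cells of a type and less RNA per cell cannot be told apart.

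BMPs are secreted dimers of the transforming growth factor beta superfamily that bind type I and type II serine-threonine kinase receptors and lead to phosphorylation of Smad1, Smad5 and Smad9, which enter the nucleus with Smad4. Noggin, chordin and follistatin bind ligands outside the cell, Bambi is a membrane pseudoreceptor without a kinase, and Smad7 blocks receptors from within and is itself induced by signalling. In the neural tube, BMPs from the surface ectoderm and later the roof plate pattern dorsal cell types, while antagonists from the notochord and paraxial mesoderm limit their reach and bear on bending and closure of the neural folds.

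In the first interval, between GD8.5 and GD9.0, the change in this group was downward. At GD9.0 against GD8.5, Bmp2, Bmp4, Fst and Bambi fell, by 1.73-fold to 2.58-fold, and none of the 10 genes rose. These 4 of 10 genes were called lower at a Benjamini-Hochberg adjusted p under 0.05 over all genes in limma's moderated test, where 13.5% of all genes were called in either direction, 6.74% lower and 6.78% higher. The median log2 change of the 10 genes was -0.24, and that of all genes was -0.0019. Shares here and below are over all genes, 71.6% of which had a mean above background, while of the 10 genes only Nog did not. The 10 genes were chosen with earlier results of these data known, so their counts are given as a description. At the level of probe sets, 8 of 16 were called lower and 0 higher, where 7.96% of all probe sets were called, 3.68% lower and 4.28% higher. That count of 8 was 5 without GD8.5 replicate 3.

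In the second interval, between GD9.0 and GD9.5, the group split. At GD9.5 against GD9.0, Bmp4, Bmp6, Bambi and Smad7 rose by 1.27-fold to 1.47-fold, and Bmp2, Bmp5 and Fst fell by 1.28-fold to 2.84-fold. Thus 7 of 10 genes were called, against a background of 24.3% of all genes in either direction, 14.1% higher and 10.3% lower. The median log2 change of the 10 genes was -0.07 and that of all genes was -0.0077. Of the 16 probe sets, 6 were called higher and 5 lower, where 17.0% of all probe sets were called, 8.93% higher and 8.1% lower.

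Over the whole interval from GD8.5 to GD9.5, Bmp6 was higher and Bmp2, Bmp5, Fst and Bambi were lower. That is 5 of 10 genes called, 1 higher and 4 lower, beside 28.6% of all genes, 15.5% higher and 13.1% lower. The median log2 change was -0.30 for the 10 genes and -0.02 for all genes. Of the 16 probe sets, 1 was called higher and 7 lower, beside 19.3% of all probe sets (10.4% higher and 8.96% lower), and these 8 fell to 5 without GD8.5 replicate 4. The arrays of GD9.0 and GD8.5 did not overlap for 6 of the 10 genes, where this held for 34.5% of all genes. Those of GD9.5 and GD9.0 did not overlap for 7 of 10, where 27.0% of all genes did not, and those of GD9.5 and GD8.5 for 7 of 10, where 45.9% did not.

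**Figure D1:**
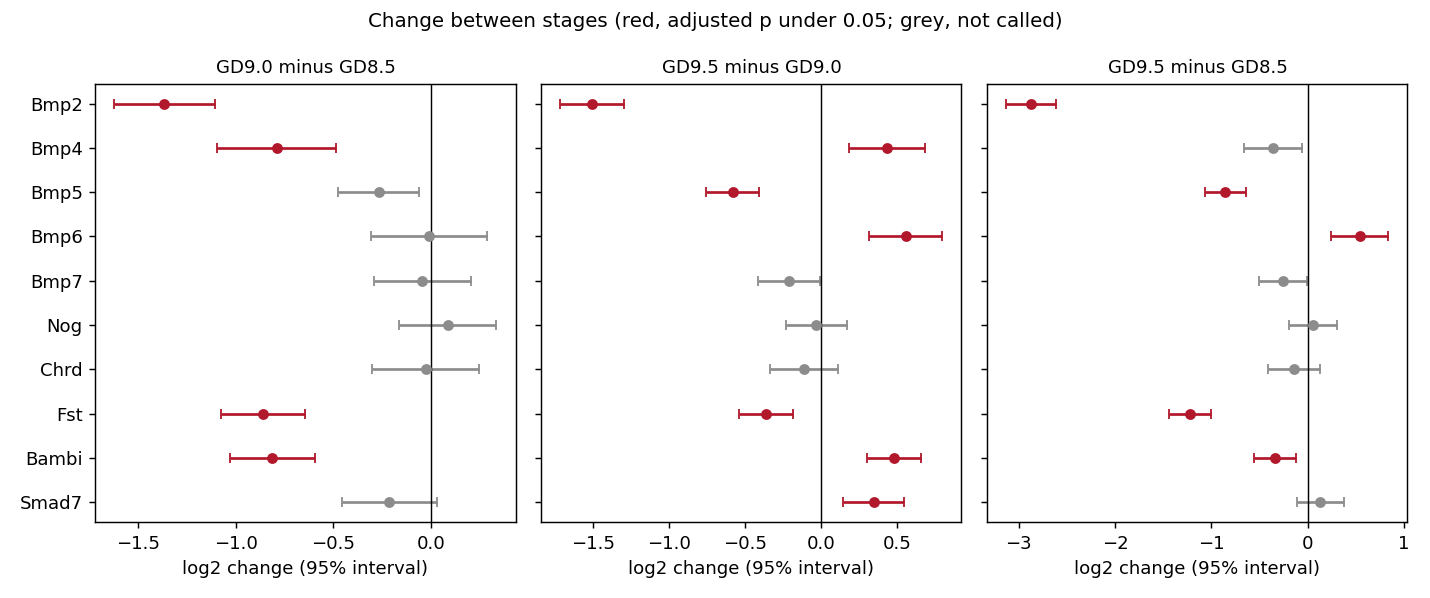
Log2 change of the 10 genes in 3 stage comparisons, each the later stage minus the earlier (points), with 95% intervals from limma (bars). Red marks an adjusted p under 0.05 over 18193 genes and grey the rest; the Bmp2 interval lies to the left of 0 in each panel, and Bmp4 and Bambi lie left of 0 in the first panel and right of 0 in the middle one.

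Among the ligands, Bmp2 fell throughout. Bmp2 is expressed in surface ectoderm, in cardiogenic mesoderm and in extraembryonic tissue of early mouse embryos. Its log2 level was 4.63 and 4.52 at GD8.5, 3.26, 3.20, 3.14 and 3.24 at GD9.0, then 1.85, 1.39, 1.86 and 1.72 at GD9.5. The 3 stages did not overlap, and at GD9.5 the array of replicate 2 lay below the background level. The log2 change was -1.37 ± 0.12 (SE) at GD9.0 against GD8.5 (limma adjusted p = 1.305e-05) and -1.50 ± 0.09 at GD9.5 against GD9.0 (limma adjusted p = 1.032e-06). Over the whole interval Bmp2 was 7.31-fold lower at GD9.5 (limma adjusted p = 9.612e-09). The change in the second interval minus that in the first was -0.14, with a 95% interval of -0.53 to 0.25. The GD9.5 mean of 1.71 lay near the background level of 1.42. This limits what the changes to GD9.5 and this difference say of size.

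Bmp4, a ligand of the surface ectoderm and roof plate that drives dorsal fates, was lowest at GD9.0. Its log2 level was 4.75 and 4.40 at GD8.5, 3.56, 3.80, 3.84 and 3.96 at GD9.0, then 4.27, 4.10, 4.44 and 4.06 at GD9.5. All 4 arrays at GD9.0 lay below every array of the other stages, while GD9.5 overlapped with GD8.5. Bmp4 was 1.73-fold lower at GD9.0 against GD8.5 (log2 change -0.79 ± 0.14 SE, limma adjusted p = 0.0025). It was 1.35-fold higher at GD9.5 against GD9.0 (0.43 ± 0.11, limma adjusted p = 0.0161), a call lost with all 12 arrays after quantile normalization (0.37, limma adjusted p = 0.0596, with values over all its alternatives of 0.00123 to 0.0596). The 2 intervals differed by 1.22 ± 0.21 (limma adjusted p = 0.00371). Over the whole interval the change of -0.36 was not called (limma adjusted p = 0.0749), but 5 of 19 alternatives called it lower. It was -0.53 without GD8.5 replicate 4 (limma adjusted p = 0.0462) and -0.19 without GD8.5 replicate 3 (limma adjusted p = 0.498), with values over all its alternatives of 0.0235 to 0.498.

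Bmp5, which belongs to the same ligand subgroup as Bmp6 and Bmp7 and is known from dorsal neural tube and cardiac mesoderm, fell in the second interval. Its brightest probe set read 4.41 and 4.45 at GD8.5, 4.33, 4.22, 4.15 and 3.93 at GD9.0, then 3.60, 3.61, 3.58 and 3.51 at GD9.5. The GD9.5 arrays lay below all others, and the change at GD9.5 against GD9.0 was -0.58 ± 0.08 (limma adjusted p = 0.000255). At GD9.0 against GD8.5 it was -0.27 (95% interval -0.48 to -0.06, limma adjusted p = 0.0945), which was not called. A dimmer probe set, 1421283_at, was called lower in both intervals, by -0.50 ± 0.10 (limma adjusted p = 0.00796) and -0.47 ± 0.08 (limma adjusted p = 0.00168). The dimmest, 1421282_at, stayed between 1.73 and 2.13 on all 10 arrays and was called in no comparison. Without GD9.0 replicate 1 the brightest probe set was also called at GD9.0 against GD8.5 (-0.33, limma adjusted p = 0.0366, with values over all its alternatives of 0.0336 to 0.339).

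Bmp6 was the 1 ligand gene of the 5 called higher over the whole interval. Its log2 level was 2.00 and 1.70 at GD8.5, 1.94, 1.64, 1.89 and 1.89 at GD9.0, then 2.29, 2.32, 2.69 and 2.26 at GD9.5, so that the GD9.5 arrays lay above the rest and replicate 3 above the other GD9.5 arrays. The gene was 1.47-fold higher at GD9.5 against GD9.0 (log2 change 0.55 ± 0.11 SE, limma adjusted p = 0.00331). Its means of 1.85 at GD8.5 and 1.84 at GD9.0 lay just above the background level of 1.42. This limits what the fold says of the size of the rise. At GD9.0 against GD8.5 the change was -0.01, with a 95% interval of -0.31 to 0.28. The call over the whole interval (0.54 ± 0.13, limma adjusted p = 0.0102) was lost without GD8.5 replicate 4 (0.39, limma adjusted p = 0.137, with values over all its alternatives of 0.00237 to 0.137).

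For Bmp7, a broadly expressed ligand of surface ectoderm, notochord and dorsal neural tube, the probe sets differed. The brightest, 1435479_at, lay between 3.96 and 4.48 on all 10 arrays and was called in no comparison, with a change of -0.21 at GD9.5 against GD9.0 (95% interval -0.41 to -0.01, limma adjusted p = 0.122). The second, 1418910_at, read 2.84 and 2.58 at GD8.5, 2.16, 2.21, 2.30 and 1.87 at GD9.0, then 2.89, 2.77, 3.03 and 2.96 at GD9.5. It was lowest at GD9.0 with no overlap, at -0.57 ± 0.12 against GD8.5 (limma adjusted p = 0.0123), and 0.78 ± 0.10 higher at GD9.5 against GD9.0 (limma adjusted p = 0.000199). The third, 1432410_a_at, stayed between 1.80 and 2.18. With an average of the 3 probe sets in place of the brightest, Bmp7 was called higher at GD9.5 against GD9.0 (0.21, limma adjusted p = 0.0195), so the direction given for Bmp7 depends on the probe set read.

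**Figure D2:**
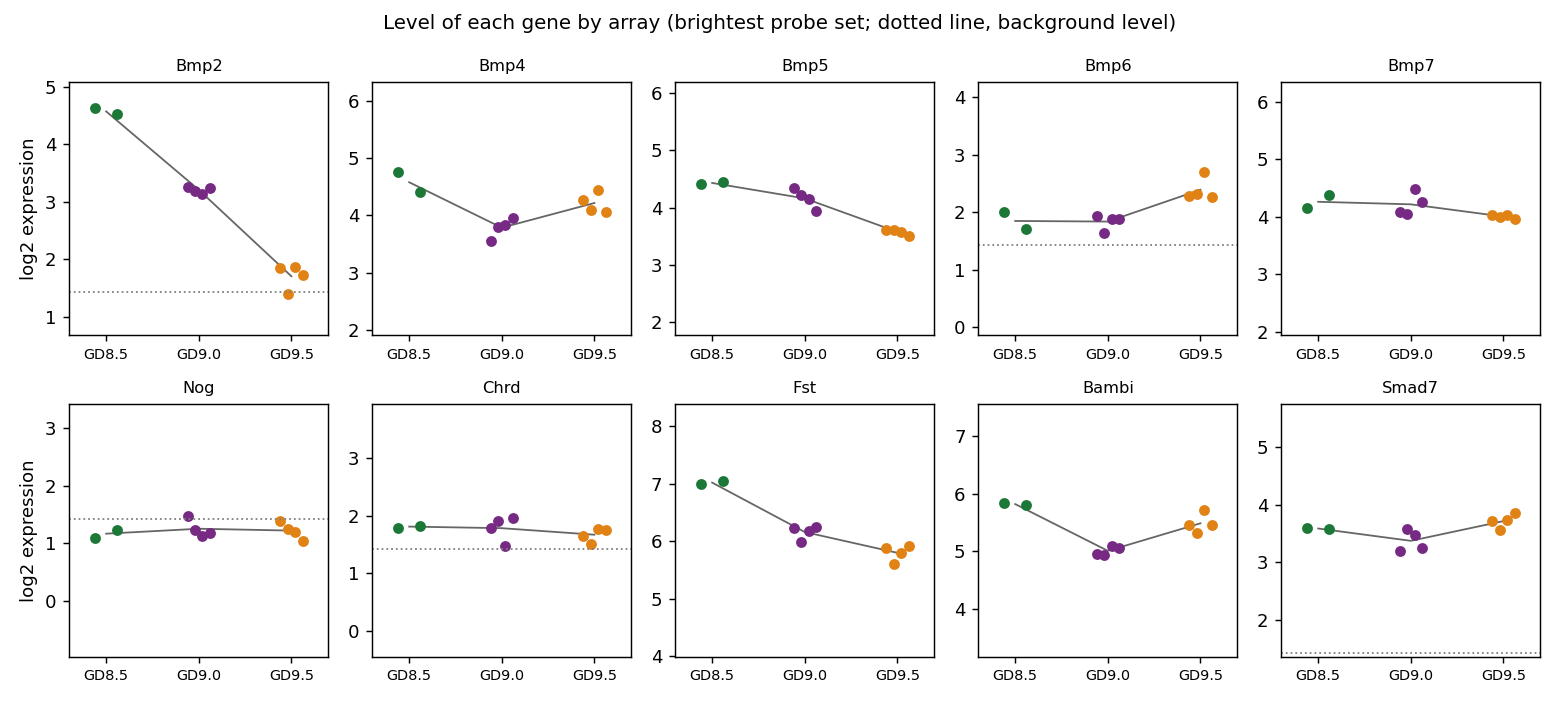
Log2 level of the brightest probe set of each of the 10 genes on each array (points) at GD8.5, GD9.0 and GD9.5 (n = 2, 4 and 4), with lines joining the stage means and the background level of 1.42 dotted where it falls in the panel. The panels span the same range of log2 units but start at different levels; Bmp2 falls through the stages, Bmp4 and Bambi are lowest at GD9.0, and the Nog points lie mostly below the dotted line.

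Promoter windows, the 250 bases before the annotated start, were at hand for 4 of the 10 genes, and those of the called ligands Bmp4, Bmp5 and Bmp6 are given here because their levels took 3 different courses. They are RefSeq sequences of build GRCm38.p6, on the minus strand at chr14:46390670-46390919 for Bmp4 and on the plus strand at chr9:75775115-75775364 for Bmp5 and chr13:38345466-38345715 for Bmp6, written 5′ to 3′ along the gene. Capitals mark GTCT or its complement AGAC, the core of the Smad binding element, searched on both strands.
Bmp4: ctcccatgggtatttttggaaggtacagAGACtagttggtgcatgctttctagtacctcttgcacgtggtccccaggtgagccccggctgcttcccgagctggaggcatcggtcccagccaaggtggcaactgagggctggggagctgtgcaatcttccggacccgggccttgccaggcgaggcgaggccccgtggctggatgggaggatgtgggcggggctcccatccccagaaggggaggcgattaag
Bmp5: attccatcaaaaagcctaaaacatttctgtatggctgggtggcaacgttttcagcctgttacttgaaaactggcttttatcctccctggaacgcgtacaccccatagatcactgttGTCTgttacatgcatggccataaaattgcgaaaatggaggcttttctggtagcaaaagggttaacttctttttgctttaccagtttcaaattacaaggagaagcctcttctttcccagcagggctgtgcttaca
Bmp6: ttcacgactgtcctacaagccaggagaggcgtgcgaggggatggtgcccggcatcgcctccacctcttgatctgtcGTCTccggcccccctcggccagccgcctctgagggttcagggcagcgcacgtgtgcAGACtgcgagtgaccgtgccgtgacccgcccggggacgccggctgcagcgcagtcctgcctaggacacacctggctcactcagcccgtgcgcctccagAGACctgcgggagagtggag
The core occurred 1 time in the Bmp4 window, 1 time in that of Bmp5 and 3 times in that of Bmp6, while 82.9% of 32851 promoter windows of this length held it, with a median of 2 matches. The GC content was 63.2% for Bmp4, 42.8% for Bmp5 and 68.8% for Bmp6. A match to so short a motif describes the letters and does not show a site in use.

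Of the extracellular antagonists, only Fst was called in the tests run here. Nog encodes noggin, a notochord and roof plate antagonist that binds Bmp2 and Bmp4. Its single probe set read 1.09 and 1.24 at GD8.5, 1.13 to 1.47 at GD9.0, then 1.03 to 1.39 at GD9.5, with all 3 stage means below the background level, so no change in its level was detectable. Chrd encodes chordin, which is made by the node and notochord. It read 1.79 and 1.83 at GD8.5, 1.48 to 1.96 at GD9.0, then 1.50 to 1.77 at GD9.5, just above background. The GD9.0 arrays overlapped with both other stages, while those of GD9.5 lay below the log2 arrays of GD8.5. The change over the whole interval was -0.14 (95% interval -0.41 to 0.13, limma adjusted p = 0.467) and was not called. By rank within each array, the linear GD8.5 arrays stood at percentiles 20.12 and 39.16, below all GD9.5 arrays (40.75 to 50.26). With these linear arrays added after quantile normalization, the change was 0.22. The order of GD8.5 and GD9.5 for Chrd thus depended on the arrays read.

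Fst encodes follistatin, which binds activins and, more weakly, BMPs, and is expressed in hindbrain neuroepithelium and somites. It read 7.00 and 7.04 at GD8.5, 6.23, 5.99, 6.19 and 6.24 at GD9.0, then 5.88, 5.61, 5.79 and 5.92 at GD9.5, with no overlap between stages. Fst fell by 0.86 ± 0.10 (SE) on the log2 scale at GD9.0 against GD8.5 (limma adjusted p = 0.000135). It fell by 0.36 ± 0.08 at GD9.5 against GD9.0 (limma adjusted p = 0.00645). At GD9.5 it was 2.33-fold lower than at GD8.5 (limma adjusted p = 3.054e-06). The other probe set, 1421365_at, gave -0.84 and -0.43 in the 2 intervals, both called. The fall was not shown to differ between the intervals (0.50 ± 0.15, limma adjusted p = 0.0556), although 7 of 19 alternatives called that difference.

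Bambi, the membrane pseudoreceptor, whose message is itself induced by BMP and usually found where Bmp4 is, was lowest at GD9.0. Its log2 level was 5.84 and 5.81 at GD8.5, 4.96, 4.93, 5.09 and 5.06 at GD9.0, then 5.46, 5.32, 5.72 and 5.46 at GD9.5. The stages did not overlap, and GD9.5 lay between the others. Bambi was 1.76-fold lower at GD9.0 against GD8.5 (-0.81 ± 0.10, limma adjusted p = 0.000214) and 1.39-fold higher at GD9.5 against GD9.0 (0.48 ± 0.08, limma adjusted p = 0.0012). The 2 intervals differed by 1.29 ± 0.15 (limma adjusted p = 0.000307). At GD9.5 against GD8.5 it was called lower (-0.33 ± 0.10, limma adjusted p = 0.0254), and this call was lost without either GD8.5 array and without GD9.5 replicates 1, 2 or 4, with limma adjusted p over all its alternatives of 0.0028 to 0.129.

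Smad7, the inhibitory Smad, read 3.60 and 3.57 at GD8.5, 3.19, 3.57, 3.48 and 3.25 at GD9.0, then 3.71, 3.57, 3.73 and 3.85 at GD9.5. The arrays of GD9.0 and GD9.5 overlapped slightly. The rise at GD9.5 against GD9.0 was 0.34 ± 0.09 (limma adjusted p = 0.0167), and it was lost without GD9.0 replicate 4 (0.30, limma adjusted p = 0.0504), without GD9.5 replicate 4 (0.30, limma adjusted p = 0.0514) and with 12 arrays (0.28, limma adjusted p = 0.076), with values over all its alternatives of 0.00151 to 0.076. A dimmer probe set, 1443771_x_at, whose suffix marks probes that can also match other transcripts, read 2.85 and 2.82 at GD8.5, 2.27, 2.13, 2.17 and 2.19 at GD9.0, then 2.67, 2.37, 2.64 and 2.37 at GD9.5. It was lowest at GD9.0 without overlap and was called lower at GD9.0 against GD8.5 (-0.64 ± 0.10, limma adjusted p = 0.00128) and higher at GD9.5 against GD9.0 (0.32 ± 0.08, limma adjusted p = 0.0151).

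**Figure D3:**
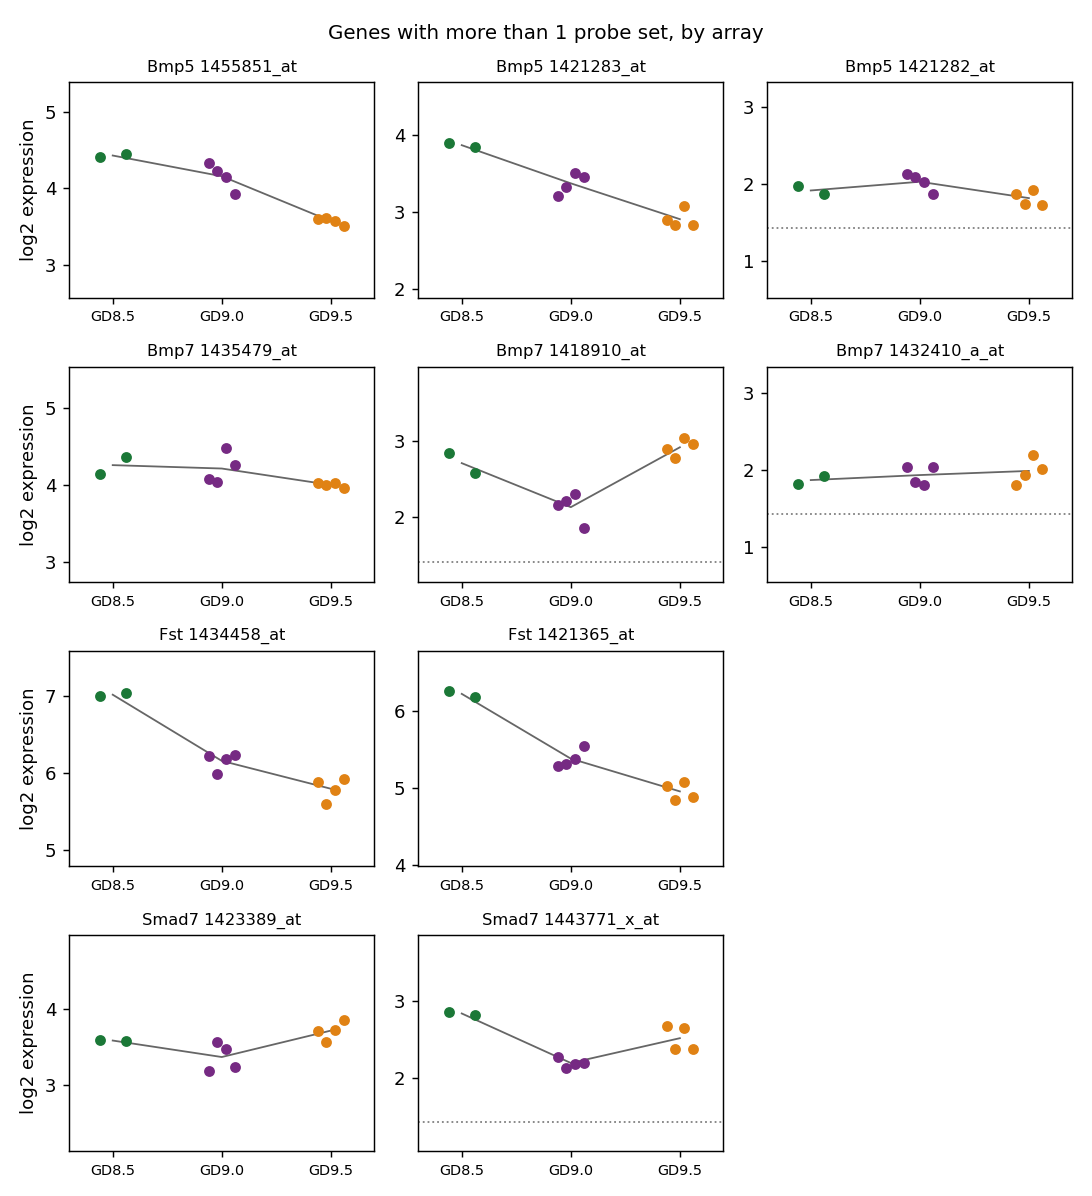
Log2 level of every probe set of Bmp5, Bmp7, Fst and Smad7, the genes with more than 1, on each array by stage (n = 2, 4 and 4), with lines through stage means and the background level of 1.42 dotted where in range. Both Fst probe sets fall through the stages, whereas for Bmp7 the middle probe set (1418910_at) is lowest at GD9.0 and the other 2 are not.

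A fall followed by a rise, with both intervals called, was seen in 2 of the 10 genes, Bmp4 and Bambi. Among all genes 1.4% (255) had this course. The difference between the intervals itself was called for the same 2 of 10 genes, where 11.6% of all genes were called, 6.97% higher and 4.67% lower. Among probe sets it was called, and higher, for 4 of 16, where 7.31% of all probe sets were called, 3.79% higher and 3.52% lower. The count of 2 genes was 4 without GD9.5 replicate 2, with Fst and Smad7 added, and 5 with the probe sets of a gene averaged. The array's control probe sets also had their lowest values at GD9.0: the 18S ribosomal RNA controls were at 9.82 to 9.83 at GD8.5, 8.65 to 9.05 at GD9.0, then 10.2 to 10.4 at GD9.5. The actin control's 3′ minus 5′ difference, which grows with RNA breakdown, was 0.70 to 0.72, 0.53 to 0.59 and 0.90 to 0.97 at the same stages. The part of RNA quality in the course of Bmp4 and Bambi was not tested.

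The 2 linear GD8.5 arrays could be set beside the others by rank within each array. Bmp2 stood at the 77.3rd to 82.1st percentile of probe sets on the 4 GD8.5 arrays, at 67.1 to 68.3 at GD9.0, then at 35.5 to 52.1 at GD9.5. Fst went through 91.5 to 92.6, 87.0 to 88.4 and 84.4 to 86.2 at the 3 stages. Both courses kept their order with no overlap when the linear arrays were counted. Bmp5 stood at 76.3 to 81.3, 73.2 to 75.9 and 69.6 to 70.5. Bmp4 stood at 76.3 to 78.6 at GD8.5, 70.4 to 73.3 at GD9.0, then 73.4 to 76.3 at GD9.5, and Bambi at 84.5 to 86.0, 80.1 to 80.8 and 82.4 to 84.9. For Bambi the GD9.0 arrays again ranked below all arrays of the other stages. For Bmp4 they ranked below all GD8.5 arrays, but the highest GD9.0 array (73.35) and the lowest GD9.5 array (73.36) were practically tied. The spread of Bmp6 at GD8.5 was wide, at 36.8 to 54.3, and its GD9.5 arrays at 58.4 to 63.4 lay above both it and the 45.1 to 53.4 of GD9.0.

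**Figure D4:**
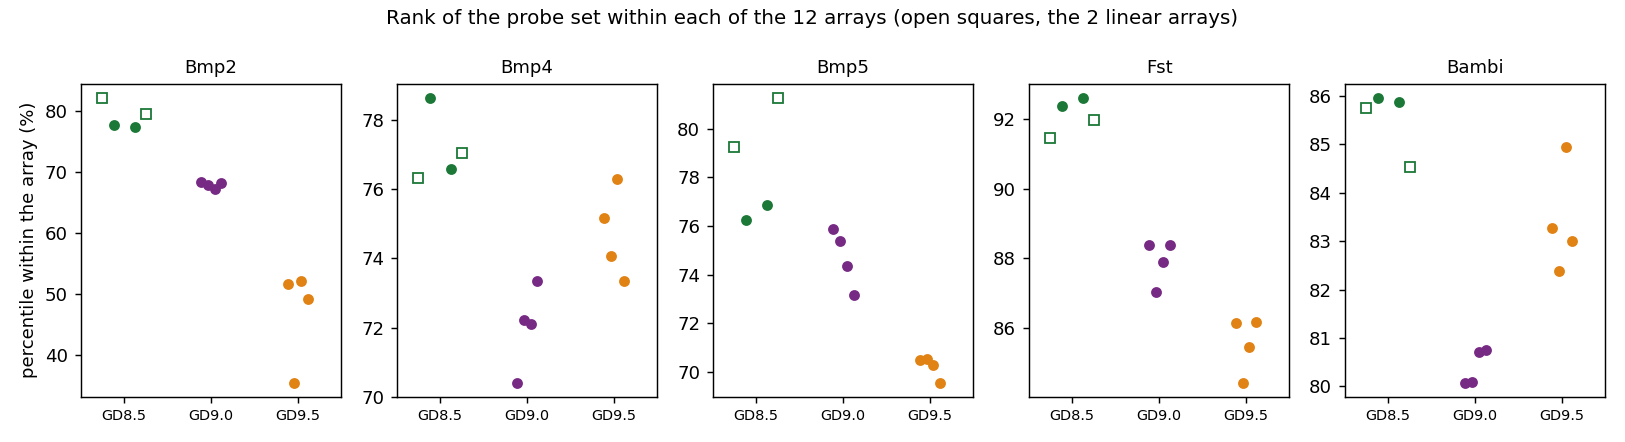
Percentile of the brightest probe set of Bmp2, Bmp4, Bmp5, Fst and Bambi among all probe sets of its array, for each of 12 arrays by stage. Open squares are the 2 GD8.5 arrays deposited on a linear scale and filled circles the 10 log2 arrays. The GD9.0 circles of Bambi lie below all GD8.5 and GD9.5 points. Those of Bmp4 lie below all GD8.5 points, but the highest is practically tied with the lowest GD9.5 point. Each panel has its own range.

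The courses of the genes over the 10 log2 arrays are set side by side here. The arrays lie in 3 stages and arrays of a stage share its level, so these correlations are given as a description. Bmp4 and Bambi had r = 0.939, Bmp2 and Fst 0.941, and Bmp2 and Bmp5 0.938, whereas Bmp5 and Bmp6 had -0.812. Nearest genes were searched among those whose stage means spanned at least 1 log2 unit and whose mean lay above background. This left 768 or 769 genes per search. Those nearest to Bmp2 were Amot, a Hippo pathway scaffold (r = 0.996), Greb1l (0.996) and Acta2, the smooth muscle actin that the early heart also makes (0.996). Nearest to Fst were the Wnt pathway modulator Dact1 (0.989), arginase Arg1 (0.980) and Cubn, the endocytic receptor cubilin of visceral endoderm (0.979). Nearest to Bmp5 were the RNA exosome subunit Exosc5 (0.983), the cardiac and muscle transcription factor Mef2c (0.968) and the peptidase Klk8 (0.966).

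The genes nearest to Bmp4 were Ezr, the membrane-cytoskeleton linker ezrin (0.920), the ribonuclease Rnase4 (0.910) and the prion protein gene Prnp (0.896). Those nearest to Bambi were Rnase4 (0.950), the metalloprotease Adam19 (0.942) and Ezr (0.934), so Ezr and Rnase4 stood in both. Ezr had stage means of 7.30, 6.26 and 6.64, and Rnase4 of 4.03, 2.67 and 3.37, at GD8.5, GD9.0 and GD9.5. Bmp6 was most like Limch1 (0.923), Ttc28 (0.913) and the ephrin receptor Epha5 (0.913), which had stage means of 1.45, 1.67 and 2.92. Smad7 had looser neighbours, Cdk16 (0.830), Fam171a2 (0.827) and the zinc finger gene Tshz1 (0.815).

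Counts over the other genes of the pathway are read against the shares of all genes called, which were 13.5% in the first interval, 24.3% in the second and 28.6% over the whole. Of 15 further BMP, GDF, activin and related ligand genes measured, 2 were lower at GD9.0 against GD8.5, none was called at GD9.5 against GD9.0 by limma (2 at an unadjusted p under 0.05), and 2 were lower over the whole interval. The 2 of 15 in the first interval are close to the share of all genes. They were Gdf10, a BMP3-related ligand of the roof plate (-0.46 ± 0.09 at GD9.0 against GD8.5, limma adjusted p = 0.00463), and Gdf9, known from oocytes (-0.54 ± 0.12, limma adjusted p = 0.015). The median change of the list at GD9.0 against GD8.5 was 0.02.

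Among receptor genes, more rose than fell in the second interval. Of 14 receptor and co-receptor genes, 2 were higher and 4 lower in the first interval, and 5 were higher and 2 lower in the second, with medians of -0.08 and 0.16. The type I receptor gene Bmpr1b rose in both intervals, by 0.47 ± 0.12 (limma adjusted p = 0.0195) and 0.76 ± 0.09 (limma adjusted p = 0.000159), with stage means of 2.61, 3.08 and 3.84. The type II receptor gene Bmpr2 rose at GD9.5 against GD9.0 (0.59 ± 0.06, limma adjusted p = 5.401e-05), as did the type I receptor gene Acvr1 (0.33 ± 0.07, limma adjusted p = 0.00467). Acvr2a, a type II receptor for activins and BMPs, rose at GD9.0 against GD8.5 (0.53 ± 0.06, limma adjusted p = 0.000135). Other receptor and co-receptor genes moved the other way. The receptor genes Acvr1b (-0.31 ± 0.08, limma adjusted p = 0.0226) and Acvr2b (-0.26 ± 0.07, limma adjusted p = 0.0349) fell at GD9.0 against GD8.5. Acvr1b then rose at GD9.5 against GD9.0 (0.21 ± 0.06, limma adjusted p = 0.0388), and Bmpr1a was called in no stage comparison. Tgfbr3, the co-receptor betaglycan, fell in both intervals (-0.69 ± 0.06, limma adjusted p = 1.586e-05, and -0.24 ± 0.05, limma adjusted p = 0.00448). Rgmb, a repulsive guidance molecule that binds BMPs, fell at GD9.5 against GD9.0 (-0.97 ± 0.14, limma adjusted p = 0.000468).

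Among 22 other extracellular modulators, 1 was higher and 4 lower in the first interval, 2 were higher and 4 lower in the second, and 3 were higher and 9 lower over the whole interval. Sostdc1, a secreted BMP and Wnt antagonist, rose 3.71-fold at GD9.0 against GD8.5 (1.89 ± 0.09, limma adjusted p = 1.089e-07), and its stage means were 2.18, 4.07 and 4.09. Htra1, a secreted protease that inhibits signalling of this superfamily, was 7.12-fold lower at GD9.0 against GD8.5 (-2.83 ± 0.08, limma adjusted p = 1.816e-09). Bmper, which binds BMPs and resembles crossveinless 2 of the fly, was 1.98-fold lower at GD9.5 against GD9.0 (-0.98 ± 0.07, limma adjusted p = 2.706e-06). Grem1, the antagonist gremlin, fell in the same interval (-0.52 ± 0.11, limma adjusted p = 0.00557), while Bmp1, the protease that cleaves chordin, rose (0.47 ± 0.10, limma adjusted p = 0.00643), as did the ligand-binding membrane protein gene Crim1 (0.41 ± 0.09, limma adjusted p = 0.00574).

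Inside the cell, 5 of 20 Smad and regulator genes were higher and 3 lower in the first interval, and 9 were higher and 1 lower in the second. The inhibitory Smad gene Smad6, the relative of Smad7, was 2.29-fold lower at GD9.0 against GD8.5 (-1.20 ± 0.14, limma adjusted p = 0.000151), with stage means of 4.10, 2.91 and 3.09. Skil, which encodes the Smad corepressor SnoN, rose in both intervals (0.45 ± 0.06, limma adjusted p = 0.000481, and 0.68 ± 0.05, limma adjusted p = 3.052e-06). Zfp423, a zinc finger partner of the BMP Smads, rose at GD9.5 against GD9.0 (0.59 ± 0.05, limma adjusted p = 6.304e-06). Smad2 is among the genes counted, but its probe sets were called in opposite directions, so no value is given for it.

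Genes that BMP signalling is known to induce moved in both directions. Of 20 measured, 2 were higher and 6 lower in the first interval (median -0.15), 4 were higher and 4 lower in the second (median 0.09), and 5 were higher and 9 lower over the whole interval. The Id genes, which encode inhibitors of basic helix-loop-helix factors, split: Id4 was 7.83-fold higher at GD9.5 against GD9.0 (2.97 ± 0.08, limma adjusted p = 1.796e-09), while Id1 was 1.56-fold lower (-0.64 ± 0.06, limma adjusted p = 1.039e-05). In that interval Id3 was also lower (-0.32 ± 0.05, limma adjusted p = 0.000456), and Id2 was not called (-0.0023, limma adjusted p = 0.982). Stage means were 4.82, 5.34 and 8.31 for Id4 and 8.05, 7.88 and 7.24 for Id1. The dorsal homeobox genes Msx1 (0.52 ± 0.06, limma adjusted p = 0.00012) and Msx3 (1.06 ± 0.08, limma adjusted p = 4.881e-06) rose at GD9.5 against GD9.0, and the ectodermal genes Dlx5 (-0.56 ± 0.09, limma adjusted p = 0.000767) and Tfap2a (-0.46 ± 0.06, limma adjusted p = 0.000265) fell. Gata3, a factor of non-neural ectoderm, was called lower at GD9.0 against GD8.5 (limma adjusted p = 0.0264). Its mean was 1.31 ± 0.25 at GD9.0 (SD, n = 4), below background, and 2.35 ± 0.84 at GD8.5 (SD, n = 2), where the 2 arrays stood far apart, so no fold is given.

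Id4 had the largest change of these 20 genes at GD9.5 against GD9.0, and its promoter window is given for that reason (RefSeq, GRCm38.p6, chr13:48260866-48261115, plus strand). Capitals mark GGCGCC, a GC-rich element that BMP Smads bind, which reads the same on both strands.
Id4: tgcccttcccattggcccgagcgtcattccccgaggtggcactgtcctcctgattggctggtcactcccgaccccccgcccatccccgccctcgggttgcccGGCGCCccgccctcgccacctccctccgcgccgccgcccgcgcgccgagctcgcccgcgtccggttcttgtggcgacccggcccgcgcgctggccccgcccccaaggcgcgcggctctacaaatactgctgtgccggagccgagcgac
It held 1 match, and 9.59% of 32851 windows of this length held at least 1. Of the 20 BMP-responsive genes 11 had a window, and 4 of these 11 held the element. That count is of genes with a match in any window, whereas 9.59% is a share of windows, so the values are not compared. The GC content of the Id4 window was 75.6%, and a window rich in G and C holds such an element more readily. A match describes the letters here too and does not show a site in use.

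Markers of other tissues differed between the stages. The mean log2 level of 24 cardiac muscle markers was 4.39 ± 0.04 at GD8.5, 2.52 ± 0.02 at GD9.0, then 1.56 ± 0.05 at GD9.5 (SD, n = 2, 4 and 4), and 20 of the 24 were lower at GD9.5 than at GD8.5. The log2 of their summed linear level was 10.69 to 10.73, 7.96 to 8.04 and 6.20 to 6.32, and 1, 3 and 12 of the 24 were at or below the background level. At GD9.5 Tnnt2 and Myh6, which encode heart sarcomere proteins, were at 1.33 and 1.33, below it. For 22 endoderm and yolk sac markers the mean was 4.83 ± 0.01, 2.82 ± 0.04 and 1.70 ± 0.02, with a log2 summed level of 11.08 to 11.10, 8.37 to 8.47 and 6.41 to 6.46, and 2, 5 and 8 of the 22 at or below background. These 2 lists fell through both intervals, as Bmp2 and Fst did, and their part in the falls of Bmp2, Bmp5 and Fst was not tested.

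Surface ectoderm, a source of BMP ligands, also gave less signal at later stages. Its 21 markers had a mean of 4.10 ± 0.02, 3.78 ± 0.01 and 3.37 ± 0.04, a log2 summed level of 10.14 to 10.17, 9.31 to 9.42 and 8.56 to 8.64, and 12 of 21 were lower and 1 higher at GD9.5 than at GD8.5, with 1, 2 and 3 of them at or below background. The keratin gene Krt8 was 4.91-fold lower at GD9.5 than at GD8.5 (limma adjusted p = 6.196e-09), and Trp63, the p63 factor of ectodermal progenitors, was 2.18-fold higher (limma adjusted p = 4.158e-06). In the node, notochord and floor plate list, the tissues that make Nog and Chrd, 6 of 12 genes were lower and 0 higher at GD9.5 than at GD8.5, with Foxa2 at -1.45 ± 0.09 (limma adjusted p = 5.033e-07). At GD9.5 against GD9.0, 3 were lower and 1 higher, which was Ntn1 (0.36 ± 0.08, limma adjusted p = 0.00898). Of the 12, 5, 6 and 6 were at or below background at GD8.5, GD9.0 and GD9.5, which limits what the list can show. The part of these tissues in the ligand and antagonist levels was not tested.

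The other marker lists moved in both directions. Of 17 caudal progenitor and primitive streak markers, 9 were lower and 0 higher at GD9.0 against GD8.5, with a median of -0.48, and over the whole interval 10 were lower and 3 higher. Their mean was 3.36 ± 0.07 at GD8.5, 2.61 ± 0.04 at GD9.0, then 2.65 ± 0.02 at GD9.5 (SD, n = 2, 4 and 4), with a log2 summed level of 8.79 to 8.86, 8.15 to 8.24 and 8.09 to 8.13, and 0, 4 and 4 of the 17 at or below background. Nkx1-2, a homeobox gene of caudal progenitors, was at least 6.33-fold lower at GD9.0 against GD8.5 (limma adjusted p = 2.09e-09), and Cyp26a1, which degrades retinoic acid in the tail bud, was 6.73-fold lower (limma adjusted p = 2.252e-07). The first-interval falls of Bmp4 and Bambi lie beside this one, and its part in them was not tested.

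Of 21 paraxial mesoderm and mesenchyme markers, 4 were higher and 8 lower at GD9.5 than at GD8.5. Their mean was 3.43 ± 0.04, 3.16 ± 0.06 and 3.21 ± 0.02, their log2 summed level 9.01 to 9.04, 9.52 to 9.61 and 9.86 to 9.94, and 4, 8 and 6 of the 21 were at or below background. The collagen gene Col3a1 was 6.25-fold higher over that interval (limma adjusted p = 2.346e-10), and the mesodermal factor gene Foxc2 was 3.66-fold lower (limma adjusted p = 2.594e-07). Of 11 erythroid markers, 8 were higher and 1 lower over the same interval, with a mean of 3.94 ± 0.10, 4.75 ± 0.03 and 5.24 ± 0.04, a log2 summed level of 11.10 to 11.12, 12.66 to 12.75 and 13.32 to 13.40, and 3, 3 and 1 of the 11 at or below background. Hba-x, an embryonic globin gene, was 5.67-fold higher (limma adjusted p = 1.838e-10). Of 12 neural crest markers 3 were higher and 6 lower, and of 15 endothelial markers 2 were higher and 6 lower. The part of these tissues in the levels of the 10 genes was not tested.

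Genes of the labelled tissue were measured as well. Of 19 neural progenitor genes, 16 were higher and 0 lower at GD9.5 than at GD8.5, and Sox2, a neural progenitor factor, had stage means of 8.51, 8.68 and 9.02. Of 20 roof plate and dorsal progenitor genes, 13 were higher and 4 lower over the same interval. Within that list the Wnt activator genes Rspo1 (3.01 ± 0.09, limma adjusted p = 8.162e-10) and Rspo2 (3.70 ± 0.11, limma adjusted p = 7.721e-10) and the dorsal factor gene Zic1 (3.31 ± 0.06, limma adjusted p = 2.497e-11) rose. The choroid plexus transport protein gene Ttr, which the endoderm and yolk sac list also holds, fell (-7.96 ± 0.09, limma adjusted p = 1.054e-12), as did Gdf10 (-0.48 ± 0.09, limma adjusted p = 0.00156) and the homeobox gene Msx2 (-0.36 ± 0.08, limma adjusted p = 0.005). Of the ligands known from the dorsal neural tube, Bmp5 fell over this interval, and Bmp4 and Bmp7 were not called as fitted. For Bmp4, 5 of 19 alternatives called it lower. For Bmp7, 2 of 19 called it lower and 2 of 19 reversed its sign, with values from -0.37 to 0.13. Its dimmer probe sets 1418910_at (0.21) and 1432410_a_at (0.12) were higher at GD9.5 than at GD8.5 but not called.

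**Figure D5:**
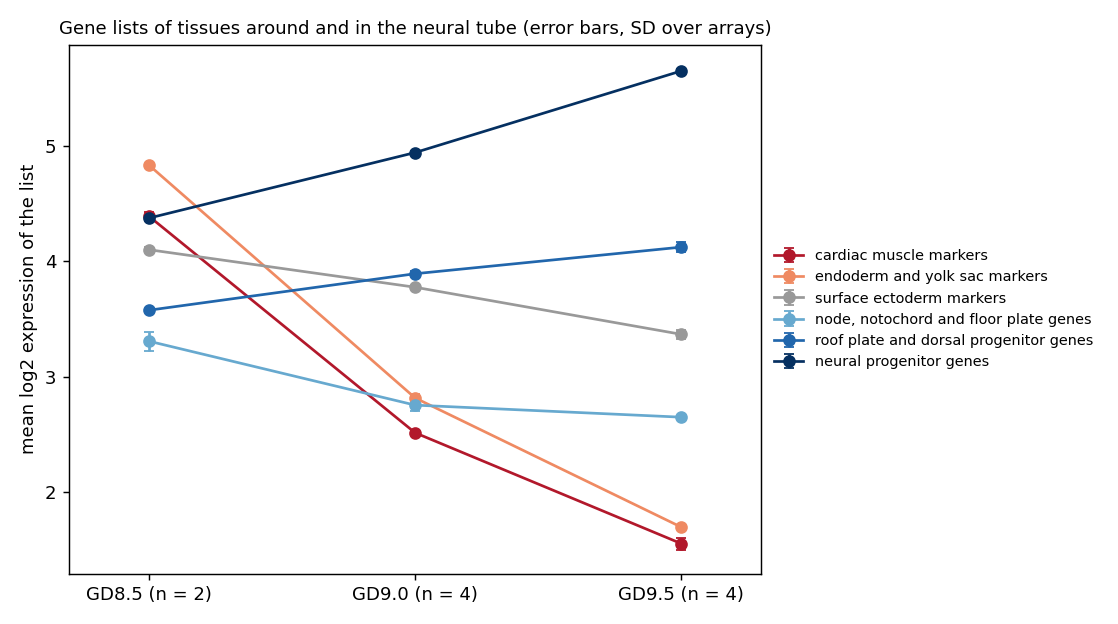
Mean log2 level (points) with SD over arrays (bars) of 6 gene lists at GD8.5, GD9.0 and GD9.5 (n = 2, 4 and 4). The neural progenitor list ends at 5.65 and the roof plate and dorsal progenitor list at 4.12, above their GD8.5 means, while the cardiac list ends at 1.56 and the endoderm and yolk sac list at 1.70.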

How the data were processed

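Biotin-labelled material from total RNA was measured on Affymetrix GeneChip expression arrays of the mouse, per the labels' protocols. The authors deposited 1 value table, with log2 values for 10 arrays and linear intensity values for GD8.5 replicates 1 and 2. Affymetrix Expression Console 1.2.1, RMA and GCRMA are named in the submitters' processing notes, without saying which of them produced which array's values. The sorted values of the 10 log2 arrays differed by at most 0.27. The slope of the mean of the 2 GD8.5 log2 arrays on log2 of the mean of the linear ones was 1.01. It was fitted over probe sets above 5 on the log2 scale, so it does not cover the scales at lower levels.

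From the deposited values, each gene was represented by its brightest single-gene probe set (18193 genes, 161 of them absent from the reference gene table; 64 control probe sets were left out). Names came from the platform annotation. Of the probe sets 34958 named 1 gene, 932 several and 9160 none. A mean per stage was fitted with limma 3.58.1 in R 4.3.3 on 10 arrays (7 residual and 3.86 prior degrees of freedom), with two-sided moderated tests adjusted by the Benjamini-Hochberg method over all genes, or over all 45037 probe sets for single probe sets. Errors beside log2 changes are standard errors. The fit was tested on simulated data. It recovered 6%, 28% and 18% of 1.2-fold changes in the first, second and whole interval. Of 1.5-fold changes it recovered 86%, 98% and 86%. A change of about 1.2-fold can thus go uncalled. The members and lists were chosen with earlier results of these data known. All members were named, with the 3 genes most correlated with each called member. Genes of the lists were taken from the 3 largest called rises and falls per pathway list and comparison, and from up to 2 each per marker list. Not all genes that this list rule picked are described here. Sox2, Tnnt2, Myh6 and Smad2 were named after their values were seen.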

Additional observations from a re-analysis of the deposited data

Results flagged for a closer look

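Bmp6 at GD9.5 had 1 array apart from the others. Replicate 3 read 2.69 on the log2 scale, and the other GD9.5 arrays lay between 2.26 and 2.32, a gap of 0.856 of the range of the group. Of 32 groups of 4 arrays examined over the 16 probe sets, 1 had such a sample, and chance gives about 1 in 20.

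The change of Bmp4 differed between the intervals, by 1.22 for GD9.5 minus GD9.0 less GD9.0 minus GD8.5 (limma adjusted p = 0.00371). The same difference was 1.29 for Bambi (limma adjusted p = 0.000307). GD9.0 enters both intervals with opposite signs, so its arrays weigh more in these values than those of the other stages.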

How the results depend on the processing

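Each result was recomputed under up to 19 alternatives, among them other scalings, filters and probe set rules, 12 arrays after log2 and quantile normalization, and each array left out. For the log2 changes of the 10 genes, 692 values kept direction and side of the threshold, 12 lost a call, 24 gained one and 28, all of changes not called as reported, changed sign; the cause was not tested unless named. Leaving out GD8.5 replicate 3 or 4, which leaves 1 array at that stage whose spread is taken from the others, gave 1526 or 1387 genes called at GD9.0 against GD8.5, where the main count was 2460 (1387 to 2391 over all arrays left out). With 12 arrays, 2294 genes were called at GD9.5 against GD9.0, where the main count was 4429. Member probe sets called ranged from 5 to 8 at GD9.0 against GD8.5 and from 5 to 9 at GD9.5 against GD8.5 with arrays left out (main 8 in both). Members whose intervals differed numbered 2, and were 4 with only genes above background (fewer genes tested), 5 with a gene's probe sets averaged, 4 with an intensity trend and robust spread, and 2 to 4 with arrays left out.

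The replicate block gave 5, 7, 4 and 3 members called in the first, second and whole interval and the difference of intervals, and 1899, 4176 and 4628 genes in the stage comparisons. Pairing of arrays by number was not apparent between GD9.5 and GD9.0. Deviations of same-numbered arrays of these stages correlated at -0.027, 0.122, 0.061 and 0.033, and not every array correlated best with its own number. GD8.5 was not compared, and such low correlations cannot exclude a shared origin of same-numbered arrays. With the block Bmp5 was called at GD9.0 against GD8.5 (-0.34, limma adjusted p = 0.0496) and Bambi was not at GD9.5 against GD8.5 (-0.25, limma adjusted p = 0.0546). Bambi was also not called there with median centring (-0.30, limma adjusted p = 0.0544).

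Signs turned as follows. With 12 arrays: Bmp2, difference of intervals, 0.0569; GD9.0 minus GD8.5, Bmp6 0.21, Bmp7 0.38 and Chrd 0.31; GD9.5 minus GD8.5, Bmp7 0.13 and Chrd 0.22. With the probe sets of a gene averaged, Bmp7 was at 0.21 in the second interval, 0.0225 in the whole and 0.39 in the difference of intervals, and Smad7 at -0.10 in the whole. Bmp6 at GD9.0 minus GD8.5 was 0.0015 with median centring, 0.0055 with repeated quantile normalization and 0.0567 with the block. The block gave Bmp7 0.0275 in that comparison, and Nog -0.0156 there and -0.0479 in GD9.5 minus GD8.5. With arrays left out, GD9.0 minus GD8.5 ranged from -0.16 to 0.14 for Bmp6, -0.15 to 0.0658 for Bmp7 and -0.0874 to 0.0733 for Chrd. Nog ranged from -0.0184 to 0.13 in GD9.5 minus GD8.5 and -0.0909 to 0.0406 in GD9.5 minus GD9.0. The difference of intervals ranged from -0.28 to 0.0048 for Bmp7, -0.29 to 0.0334 for Chrd and -0.20 to 0.0275 for Nog. Nog has no value with only genes above background, since it lies below. Signal over background limits what can be said of Nog, Chrd and Bmp6, and of Bmp2 at GD9.5.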
